A study of Mus musculus with 2 samples.

Results

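The pyruvate dehydrogenase complex and the enzymes that switch it on and off were followed through 10 genes, taken as the probes that carry one of these gene names on the array. They are the kinases Pdk1, Pdk2, Pdk3 and Pdk4, the phosphatases Pdp1 and Pdp2, and the subunits Pdha1, Pdhb, Dlat and Pdhx. They hold 22 of the 56605 probes and 10 of the 37074 gene names on the array.

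Gene expression was measured in C2C12 cells, a mouse myoblast line that had been differentiated into myotubes in horse serum, on 2 Agilent 1-colour arrays, 1 per group. The KPC-exo culture was exposed for 24 h to 4 µg of exosomes (vesicles secreted by cells) from a pancreatic cancer line. That line came from tumours of KPC mice, which carry, among other alleles, a lox-stop-lox allele of Trp53 R172H and a Pdx1-Cre transgene, whose Pdx1 promoter is active in the pancreas. The control culture received exosomes of the mouse pancreatic ductal epithelial line MPDC for 24 h, at a dose not given in the sources used here. Both groups are the same muscle line and each donor is a single cell line. The donor lines were grown in different media, RPMI-1640 for KPC and DMEM for MPDC. No culture without exosomes was analysed here. With 1 array per group every difference below lies between those arrays, has no replicate check and was not tested.

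The complex sits in the mitochondrial matrix and turns pyruvate into acetyl-CoA, the step that commits glucose carbon to oxidation. The kinases phosphorylate the E1 alpha subunit and stop the complex, and the phosphatases remove the phosphate and restart it. In skeletal muscle Pdk4 is known for its rise in fasting and in wasting states, when muscle turns from glucose to fatty acids, and Pdk1 is known as a target of the hypoxia factor HIF-1.

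The sequences of 3 probes carry what follows. Those of Dlat and Pdk1 are shown because another probe of the same gene gave another value. Each runs on without a stop codon in at least 1 of 3 reading frames, as most of the member probes do. The Pdk1 probe crosses a splice junction. That of Pdp2 is shown because its letters set it apart from the other 21 probes. For Pdp2 a run of 30 of the 60 bases is given, with the first 12 TG units of its repeat in capitals. Coordinates are those of the whole probes on mm9, and exon and UTR borders were not assigned here beyond that junction.
Dlat probe 1, chr9:50445621-50445680, minus strand: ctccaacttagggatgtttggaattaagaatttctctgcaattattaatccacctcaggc
Pdk1 probe 4, chr2:71721635-71721929, plus strand: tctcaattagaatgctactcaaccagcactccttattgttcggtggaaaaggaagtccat
Pdp2 probe 1, chr8:107119568-107119627, plus strand: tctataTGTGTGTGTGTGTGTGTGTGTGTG

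Levels are given as the scanner's background-subtracted signal and as log2 of it relative to the 75th percentile of all probes on the array, a value of 380 units for MPDC-exo and 639 units for KPC-exo. Unscaled signals were higher with KPC-exo at each of the 21 measured member probes, so the scale matters: against 7 spike-in probes the median of all genes moved up by 1.00 and all 10 genes lay above 0, from 0.62 for Pdp2 to 1.51 for Dlat. Directions below are relative to the bulk of the genes and would turn for the 6 genes below 0 on the spike-in scale. Differences are KPC-exo minus MPDC-exo on the centred log2 scale. A probe counted as measured where it was well above background on both arrays, and 45.9% (MPDC-exo) and 47.6% (KPC-exo) of probes passed on each. Probes of 1 gene are numbered by their signal on the MPDC-exo array, and the brightest by mean signal, probe 1 in each of the 10 genes, represents the gene. Signals of different probes cannot be set against each other, so the order of the isoforms by amount is not given. The C2C12 label was checked against markers. All 12 myotube markers were measured, among them Myog at log2 levels of 5.75 and 5.59 and Acta1 at 6.61 and 6.49 (MPDC-exo first, here and below). Ckm had log2 levels of 0.12 and -0.31. The largest differences among these markers were 0.60 for Mb, -0.43 for Ckm, -0.41 for Des and 0.34 for Tnnt3. The 3 probes of Tnnt3 ranged from 0.04 to 0.34. Of 10 markers of pancreatic ductal epithelium 2 were measured, Krt19 at -2.47 and -2.34 and Sox9 at 0.38 and 0.22, and the other 8, Epcam and Cdh1 among them, were not measured. Of 4 acinar markers 2 were measured, both dim, Prss2 at -3.50 and -3.65 and Cela2a at -3.37 and -2.69, a difference of 0.68. All 4 fibroblast markers were measured, with differences of 0.37 for Dcn (6.08 and 6.45), 0.27 for Pdgfra, 0.22 for Col1a1 and -0.20 for Lum. The 2 probes of Pdgfra ranged from 0.06 to 0.27, and the 3 probes of Col1a1 from -0.06 to 0.22. The part of these cell types in the members' values was not tested.

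The 10 genes were all measured, and at the probe that represents each gene none was 1.5-fold apart, 0.58 on the log2 scale, in either direction. Over all 16909 measured genes, 3.68% were at least 1.5-fold higher with KPC-exo, 3.7% were lower by as much, and 7.37% were one or the other, so 0 of 10 is near the background. The higher share of those calls was 49.9%, and 39.8% with centring on the median, 37.0% with cyclic loess and 38.8% with normexp background correction. The E2 core gene Dlat (0.51) and the kinase Pdk2 (0.48) had the highest differences and the phosphatase Pdp2 (-0.38) the lowest, although the other probe of Pdp2 gave 0.46. All 10 lay between the 5th and 95th percentiles of all measured genes, -0.49 and 0.52. Their median difference was -0.06 beside 0.06 over all genes, with 4 of the 10 above that median. With the mean over a gene's probes in place of the brightest probe the order turned, to 0.14 for the members beside 0.05 for all genes, with 8 of the 10 above. The scanner software's own error of such a difference, propagated from its error for each spot, was 0.20 for most member probes (median 0.20, highest 0.37 among the measured ones). It is the software's estimate for single spots and not a spread measured in these data. For comparison, 292 other probes spotted 10 times had a median SD of 0.03 between spots within either array. In bulk RNA, fewer cells of a type and less RNA per cell cannot be told apart.

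**Figure D1:**
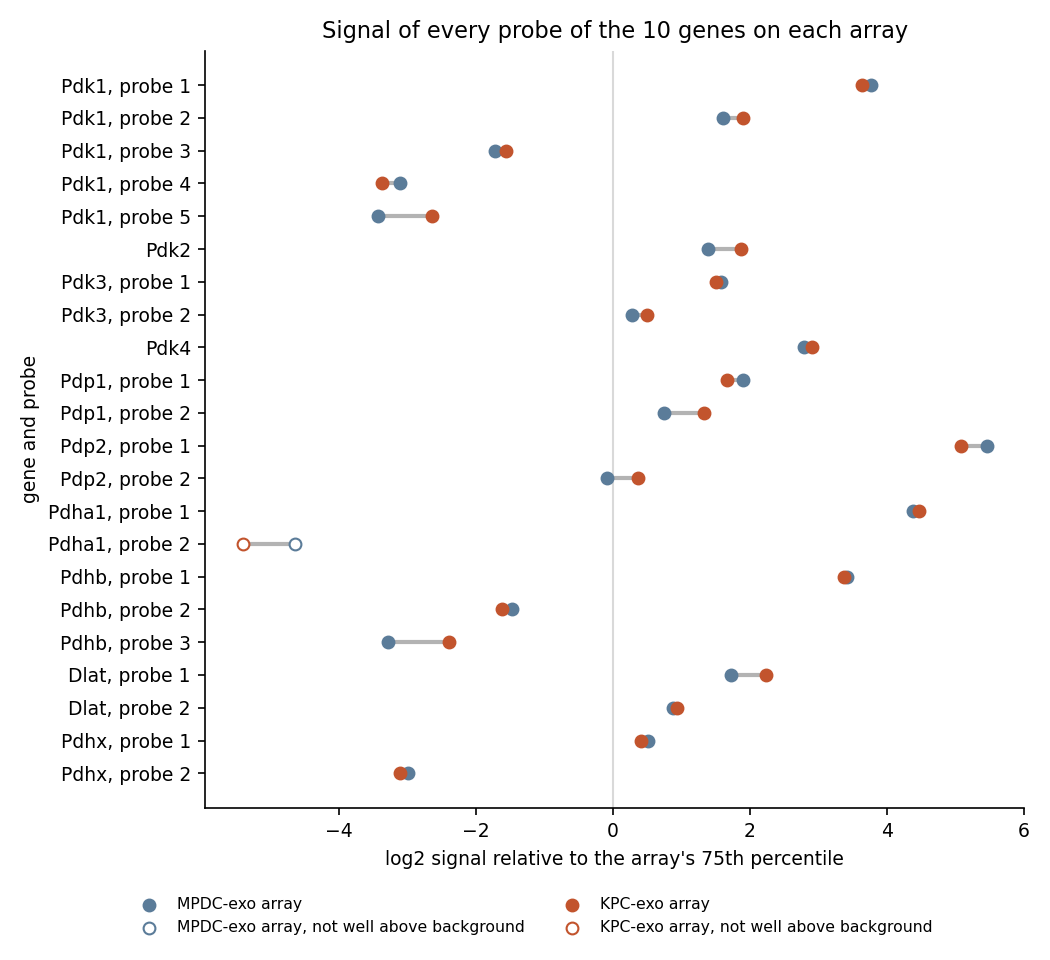
Log2 signal of every probe of the 10 genes relative to the 75th percentile of its array, with the MPDC-exo array in blue and the KPC-exo array in red. The points of 1 probe lie close together beside the spread between probes, and open points mark the Pdha1 probe that was not measured.

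Among the kinases, Pdk4 differed little. Its single probe, on chromosome 6 from 5433441 to 5433500, gave 2643 and 4771 units, or log2 levels of 2.80 and 2.90. The difference of 0.10 was smaller than the scanner error of 0.20. Pdk2, the most widely expressed of the kinases, had 992 and 2327 units at its single probe on chromosome 11 from 94887669 to 94887728. Its log2 levels were 1.38 and 1.87, a ratio of 1.40-fold in favour of KPC-exo. That difference of 0.48 was above its scanner error of 0.20 and lay under the 1.5-fold mark. It ranged from 0.40 to 0.48 over the alternatives that keep the bulk of the signal as the reference.

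Pdk1 had 5 probes and no single direction. Probe 1, the brightest, read 5183 and 7914 units, log2 levels of 3.77 and 3.63, and a difference of -0.14. It lies on chromosome 2 from 71739926 to 71739985. Probe 2 lies 238 bases upstream of it in the same transcript and read 1156 and 2380 units, a difference of 0.29. Neighbouring probes near the same end of the transcript thus fell on both sides of 0. Probe 3 gave 0.16, from log2 levels of -1.72 and -1.56. Probe 4, the junction probe printed above, gave -0.26 from 44.2 and 61.9 units, with a scanner error of 0.37. Probe 5, designed on an Ensembl transcript, gave 0.78 from 35.4 and 102 units, with a scanner error of 0.36. With normexp, probe 5 had 0.11, under the 1.5-fold mark. As run here, normexp subtracted the local background, modelled what was left and added an offset of 50 units. An offset of that size draws the differences of such dim spots towards 0, so the lower value is no separate check on the background.

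Pdk3, the kinase encoded on the X chromosome, had 2 probes that lay on both sides of 0. Probe 1 read 1139 and 1817 units, a difference of -0.07. Probe 2 crosses a splice junction, on chromosome X from 91010552 to 91014244, and read 460 and 900 units, a difference of 0.22. Both differences lay near or within the scanner error of 0.20 to 0.21. The longest run of letters shared by any pair of probes of different members was 11 of 60 bases. The probes were not matched to the transcripts of the other kinases, so whether each reads only its own kinase was not tested.

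Each of the phosphatases, Pdp1 and Pdp2, had probes that disagreed. Pdp1, the catalytic subunit activated by calcium in muscle, read 1426 and 2036 units at probe 1, a difference of -0.23. At probe 2 it read 637 and 1610 units, a difference of 0.59, or 1.51-fold higher with KPC-exo. The probes differ by 0.82, while the scanner error of each is 0.20. The upstream probe 2 passed 1.5-fold by a small margin. Its difference was 0.54 with centring on the median, 0.53 with the percentile of detected probes, 0.50 with cyclic loess, 0.55 in the series value table and 0.55 after quantile normalization, all under that mark. It was 0.61 with normexp and 0.59 with either of the other rules on flagged spots, above the mark.

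Pdp2 looked lower at probe 1, at 16791 and 21696 units, log2 levels of 5.46 and 5.09, and a difference of -0.38. At probe 2, on chromosome 8 from 107120490 to 107120549, it read 358 and 827 units, log2 levels of -0.09 and 0.37, and a difference of 0.46, or 1.37-fold higher. The gene's direction therefore depends on the probe. Probe 1 holds TG repeated 18 times in a row, and probe 2 holds no such repeat. Across the array 48 probes, Pdp2 probe 1 among them, hold TG at least 10 times in a row on the printed strand. All 48 were measured, and all 48 lay below 0, from -0.47 to -0.25, with a median of -0.37 and quartiles of -0.40 and -0.35. Of the 8291 other measured probes over the same range of signal, 38.8% were below 0, and their median was 0.06. The value of Pdp2 probe 1 lay between the quartiles of the repeat-bearing probes. The part of the repeat in that value was not tested. The limit of 10 repeats was chosen after the value was seen.

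**Figure D2:**
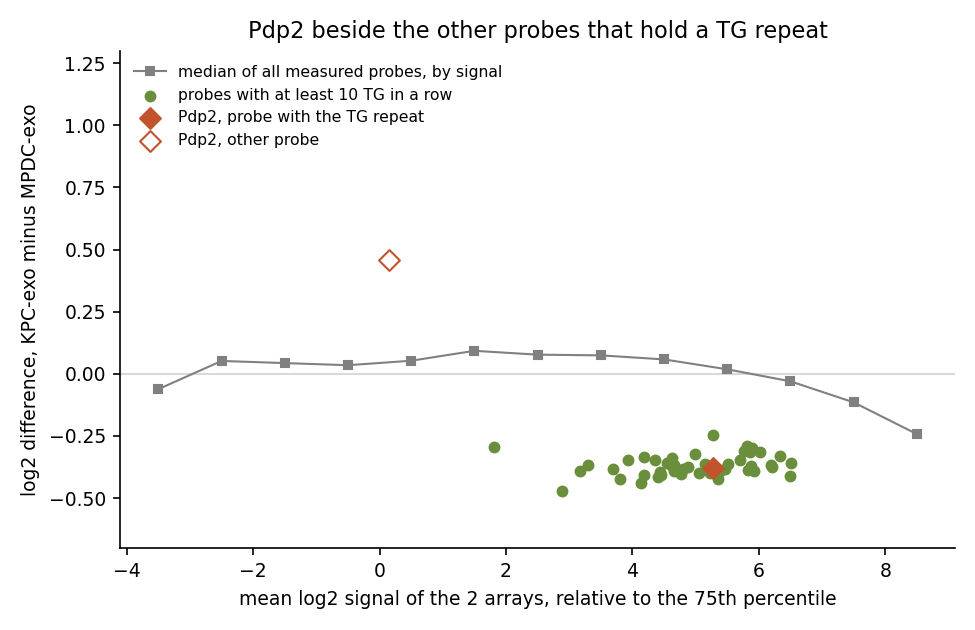
Log2 difference (KPC-exo minus MPDC-exo) against mean log2 signal for the 48 probes with at least 10 TG in a row (green), the probes of Pdp2 (diamonds) and the median of all measured probes in steps of 1 log2 unit, for steps of at least 20 probes (grey). The filled diamond lies inside the green cloud near -0.38 and the open one lies at 0.46.

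The E1 subunits, which take pyruvate and release its carbon dioxide, differed little at their bright probes. Pdha1, the subunit that the kinases phosphorylate, read 7899 and 14211 units on chromosome X from 156560573 to 156560632, log2 levels of 4.38 and 4.48. Its difference of 0.10 was within the scanner error of 0.20. Its other probe, designed on an Ensembl transcript, read 15.3 and 15.1 units, below the background limit of both arrays, and gives no difference.

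Pdhb, the E1 beta subunit, read 4069 and 6615 units at probe 1, a difference of -0.05, which was 0.07 with normexp. Probe 2 gave -0.13 from 137 and 209 units, and its spot carried a background flag on both arrays. Probe 3, designed on a clone sequence, gave 0.89 from 39.0 and 122 units, or 1.86-fold higher. It gave 0.26 with normexp, whose offset of 50 units draws the differences of such dim spots towards 0. The accession and position of probe 3, chromosome 14 from 9003605 to 9003664, differ from those of the bright probe. The one probe of Pdhb past 1.5-fold was thus its dimmest.

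Dlat, the E2 core that transfers the acetyl group to coenzyme A, read 1257 and 3002 units at probe 1, log2 levels of 1.73 and 2.23. Its difference of 0.51, or 1.42-fold higher, was the highest of the 10 genes. Probe 2, 1767 bases further downstream in the same transcript, read 702 and 1222 units and gave 0.05. Dlat was thus higher at the probe printed above and not at the downstream probe, where the difference lay between -0.04 with cyclic loess and 0.09 with normexp. Pdhx, the protein that binds the E3 enzyme to the core, read 545 and 852 units at probe 1, a difference of -0.10. Its dim probe 2 gave -0.13, and the probes of Pdhx were the closest to each other of any member with more than 1 measured probe.

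**Figure D3:**
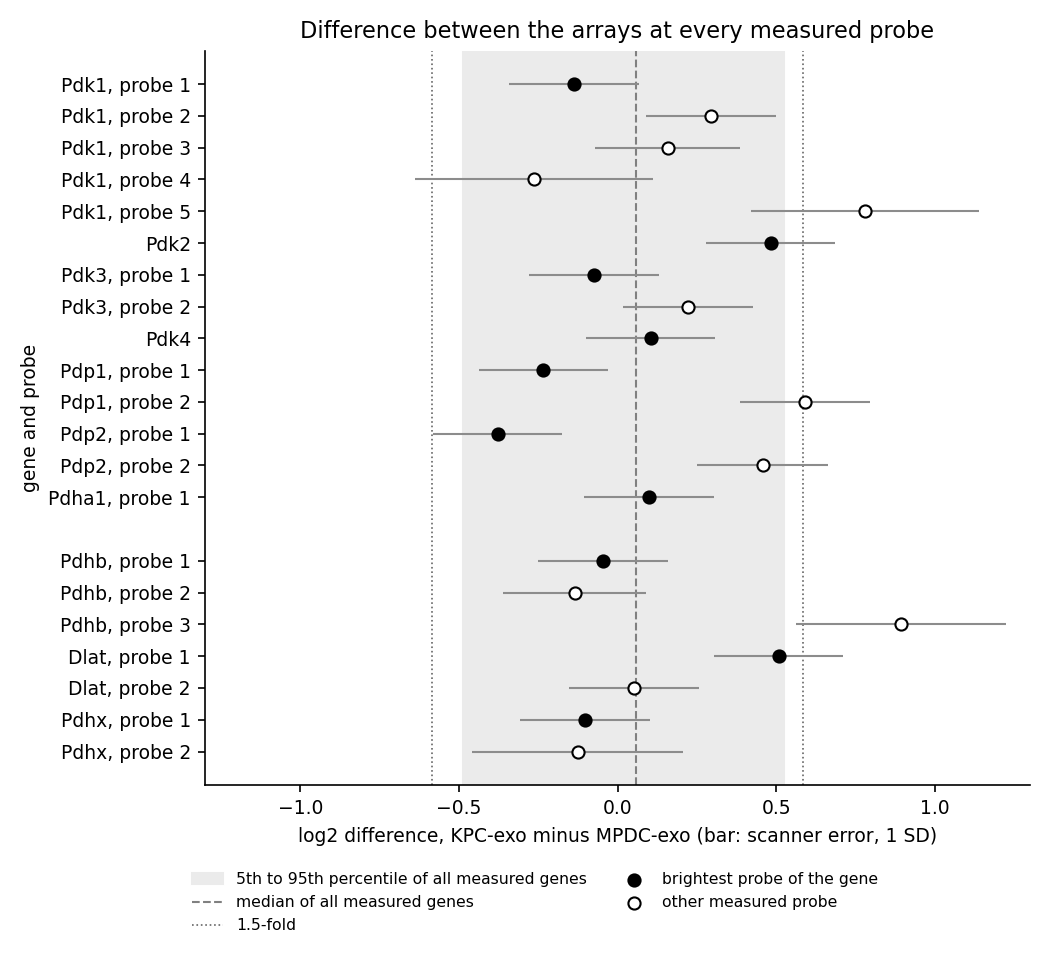
Log2 difference at each of the 21 measured probes, with bars of 1 SD from the scanner software's own error, which include no variation between cultures. The shaded band runs from -0.49 to 0.52, the 5th to 95th percentiles of all measured genes, and the 3 points beyond the dotted 1.5-fold line on the right are Pdk1 probe 5, Pdp1 probe 2 and Pdhb probe 3.

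Counted by probe, 3 of the 21 measured member probes were at least 1.5-fold higher and 0 were lower by as much. Among all 24962 measured probes these shares were 4.65% and 5.41%, or 10.1% in either direction. Of the 3 higher probes, Pdk1 probe 5 and Pdhb probe 3 belong to the 4 dimmest measured member probes. Over the range of signal of those 4 probes, 9.91% of the 1291 measured probes on the array were at least 1.5-fold higher and 12.4% at least 1.5-fold lower. The other 2 of those 4, Pdk1 probe 4 and Pdhx probe 2, lay at -0.26 and -0.13.

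Probes of 1 gene disagreed in most members with more than 1. Of the 7 members with at least 2 measured probes, 5 had probes on both sides of 0, namely Pdk1, Pdk3, Pdp1, Pdp2 and Pdhb. On the whole array this share was 53.9% of 5767 such genes. In 4 of the 7, Pdk1, Pdp1, Pdp2 and Pdhb, the probes ranged over at least 1.5-fold, against 27.6% of the 5767. The ranges were 1.04 for Pdk1, 1.03 for Pdhb, 0.84 for Pdp2 and 0.82 for Pdp1, where the median range over all such genes was 0.35. Since Pdk1 has 5 probes and Pdhb 3, a wide range is easier to reach there than with 2 probes.

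Position along the transcript was examined in pairs of probes designed on 1 accession. Over 2888 pairs at least 500 bases apart, the upstream probe had the higher difference in 33.1%, and the median of upstream minus downstream was -0.20 (SD 0.47 across pairs). Over the 1042 pairs under 500 bases apart the share turned, to 61.1% with the higher difference upstream and a median of 0.07. Over all 3930 pairs the upstream probe was the higher one in 40.6%. Most transcripts with distant probes thus had the lower difference upstream. The part of position in the members' values was not tested. These pairs take the outermost measured probes of each accession. For the members Dlat had 0.46, Pdk1 (probe 3 against probe 1) 0.30 and Pdp2 -0.84, so Dlat and that Pdk1 pair had the opposite sign to the majority. Pdk1 has 3 other pairs at least 500 bases apart, and these had the sign of the majority, at -0.14 for probe 3 against probe 2, -0.13 for probe 4 against probe 1 and -0.56 for probe 4 against probe 2. The Pdk1 pairs under 500 bases apart had 0.42 for probe 3 against probe 4 and 0.43 for probe 2 against probe 1. The Pdp2 pair includes the repeat-bearing probe. The Pdp1 probes are listed under different accessions and entered no pair.

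**Figure D4:**
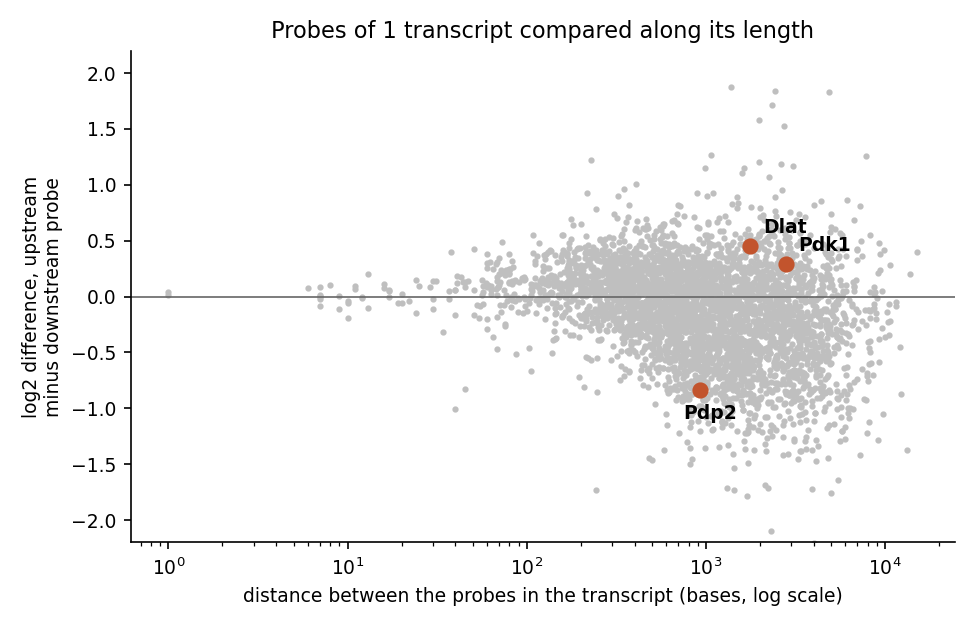
Upstream minus downstream log2 difference for the outermost pair of measured probes on each accession, against the distance between them in bases on a log scale, with the member pairs in red and all 3930 pairs in grey. Dlat and Pdk1 lie above 0 and Pdp2 lies at -0.84, while 5 pairs fall beyond the plotted limits of 2.2.

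Lists of neighbouring genes were described in the same way, with the same background of 3.68% higher and 3.7% lower. In the rest of the complex and pyruvate entry, 9 of 11 genes were measured, 0 were 1.5-fold apart, and the median was 0.20. The shared E3 enzyme Dld had 0.20, and the mitochondrial pyruvate carrier genes Mpc1 and Mpc2 had -0.11 and 0.17, while the other probe of Mpc1 gave 0.35. Me2, a mitochondrial malic enzyme that makes pyruvate, had 0.56 and Pcx, which carboxylates pyruvate, 0.38. Pdpr, the regulatory subunit of the phosphatase, had 0.31 at its brightest probe and ranged from -0.15 to 0.31 over 3 probes. Glo1, which clears methylglyoxal, had 0.26.

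Genes for lipoylation, which attaches the cofactor that Dlat needs, had 12 of 12 members measured, a median of 0.19, 0 at least 1.5-fold higher and 1 lower. The lower one was Oxsm, a mitochondrial fatty acid synthase enzyme, at -0.88, and its other measured probe gave 0.27. Lipt1, a lipoyl transferase, had 0.44, and Mcat and Mecr, of mitochondrial fatty acid synthesis, had 0.43 and 0.30, with the 4 probes of Mecr between -0.17 and 0.30. On the lactate side, 5 of 6 genes were measured and 0 were 1.5-fold apart, with a median of 0.11. Ldha, which makes lactate from pyruvate, had -0.36 and its second probe -0.89. Ldhb had 0.25, and the lactate transporters Slc16a3 and Slc16a1 had 0.30 and 0.11.

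The sister complexes, built on the same plan for other keto acids, had 7 of 9 genes measured and a median of 0.01, with 1 at least 1.5-fold higher and 0 lower. The higher one was Dbt, the E2 of the branched-chain complex, at 0.83 from dim log2 levels of -3.30 and -2.47. Bckdha had 0.35, and the branched-chain kinase Bckdk and phosphatase Ppm1k had -0.12 and -0.28, while the other probe of Ppm1k gave 0.38. The TCA cycle, which takes up the acetyl-CoA, had 15 of 15 genes measured, 0 of them 1.5-fold apart. Its median was -0.05, while its mean was 0.05. Sdhc had 0.56, Idh3g 0.35 and Mdh2 -0.22. Suclg2 had 0.27 at its brightest probe and ranged from -1.06 to 0.27 over 3 probes.

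Of 18 transcription factors known to act on the kinase genes 13 were measured, with a median of 0.10, 1 at least 1.5-fold higher and 0 lower. Ppargc1b, a coactivator of mitochondrial genes, had 0.72, while a dimmer probe gave -0.10. Klf15, a glucocorticoid-induced factor, had 0.54, Srebf1 0.19 and Hif1a -0.24. Foxo1, a direct activator of Pdk4, had 0.10. PPAR targets other than Pdk4 had 14 of 17 genes measured, a median of 0.11 and 0 that were 1.5-fold apart, with Acot2 at 0.38, Cd36 at 0.36, Acot1 at 0.26 and Ucp3 at -0.26. HIF targets other than Pdk1 had 16 of 16 measured, a median of 0.02 and 0 that were 1.5-fold apart, with Egln3 at 0.41, Pgk1 at -0.38, Eno1 at -0.33 and Ndrg1 at -0.32. The 3 probes of Eno1 ranged from -0.87 to 0.20. Of 5 markers of myoblasts or cycling cells 4 were measured and all 4 lay below 0, from -0.41 for Top2a to -0.28 for Pax7, although the 3 probes of Top2a ranged from -0.69 to 0.09. Counted by probe and not by gene, 10860 of the 24962 measured probes on the whole array lay below 0. By gene, the 5th and 25th percentiles of all measured genes were -0.49 and -0.12. The 12 myotube markers ranged from -0.43 to 0.60 with a median of -0.11. Their part in the values above was not tested.

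**Figure D5:**
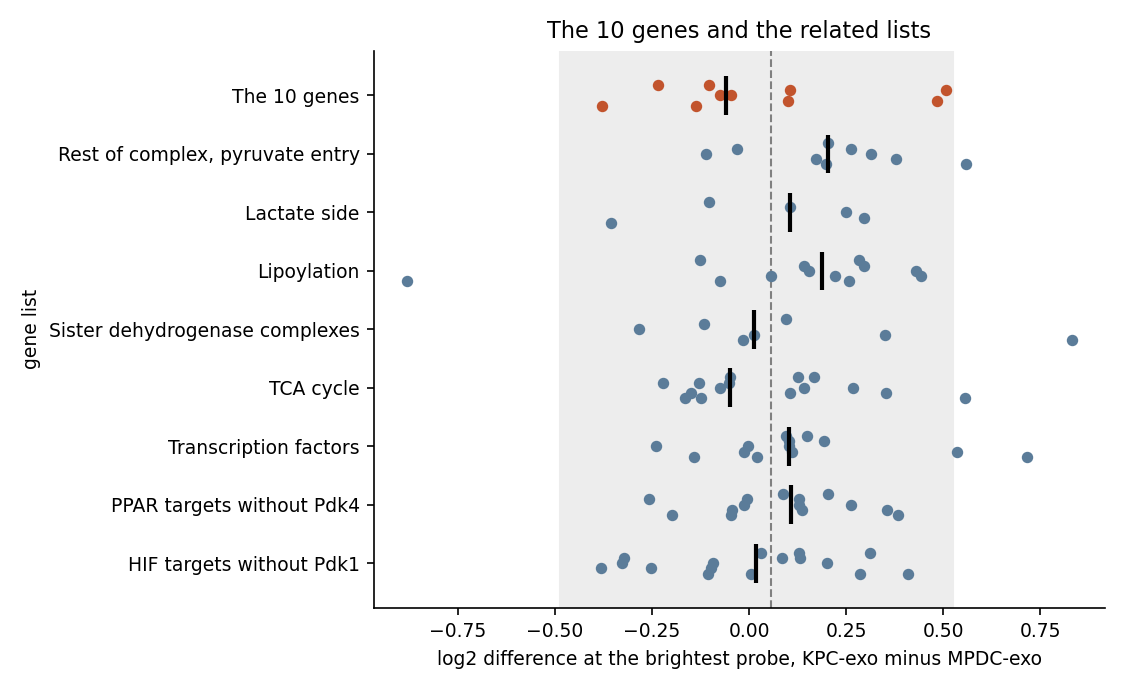
Log2 difference at the brightest probe for the 10 genes (red) and the measured genes of each related list (blue), with the median of each as a black bar, the median of all measured genes as a dashed line and the shaded band from -0.49 to 0.52. The medians of the lists lie between -0.05 and 0.20, and the median of the 10 genes lies at -0.06.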

How the data were processed

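Total RNA of 2 cultures was amplified and labelled with Cy3 and hybridised to 1-colour Agilent arrays, per the labels' protocols. The deposited spot intensity on a linear scale was made with Agilent Feature Extraction 10.7.1.1, per the submitters' processing notes, which subtracted background and spatial trends within each array, per the file headers. The deposited series table holds log2 values, made by the authors in a way not given in the sources used here. Its columns correlated with the scanner values at 1.00 across probes, and it served as an alternative only. Once sorted, its columns differed by at most 0.0005, the form that quantile normalization leaves. It is therefore not a separate alternative to the quantile normalization used here.

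Log2 of the processed signal was taken, outlier spots were dropped (102 for MPDC-exo and 166 for KPC-exo), repeated spots were averaged per probe, and the 75th percentile of the array was subtracted. No spot was saturated. The number of arrays limits the precision, and 292 probes spotted 10 times had a median SD of 0.03 within either array. The genes named are the 10 members with all probes, and up to 4 genes per list with the largest differences. Dld, Mpc1, Mpc2, Foxo1, Myog, Acta1 and the probes beyond the brightest were named outside that rule, after their values were seen. The members and lists were chosen with earlier results of these data known. The steps were tested on data simulated from the MPDC-exo array alone, with a uniform shift and the same noise at every signal. That test could not show how the steps handle noisy dim probes or probes of a gene that disagree. Alternatives were normexp with an offset of 50, 3 other centrings, quantile and cyclic loess normalization, the series table, other filters, the mean over probes, a 2-fold mark and the list mean. Software was limma 3.58.1 in R 4.3.3, and pandas 2.3.3, matplotlib 3.10.9 and numpy 2.4.6 in Python 3.11.15. Protein sequences were not used here, and one further allele of the donor line and one further probe sequence are not reported here.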

Additional observations from a re-analysis of the deposited data

How the results depend on the processing

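No paired analysis was possible because each group has 1 array. Movement was judged against the scanner error of the difference. Centring on 7 spike-in probes raised the median of all genes by 1.00 on the log2 scale, and 93.4% of all genes were then at least 1.5-fold higher, as were all 10 members, a share near that background: Pdk1 0.86, Pdk2 1.48, Pdk3 0.92, Pdk4 1.10, Pdp1 0.77, Pdp2 0.62, Pdha1 1.10, Pdhb 0.95, Dlat 1.51 and Pdhx 0.90. List medians became 1.20 for the rest of the complex, 1.10 for the lactate side, 1.19 for lipoylation, 1.01 for the sister complexes, 0.95 for the TCA cycle, 1.10 for the transcription factors, 1.11 for PPAR targets and 1.02 for HIF targets. The mean over a gene's probes gave Dlat 0.28, Pdhb 0.24, Pdk1 0.17, Pdp1 0.18 and Pdp2 0.040, and put 8 of the 10 members above the median of all genes in place of 4. Taking the Pdp2 probe without the TG repeat, an alternative chosen after seeing the data, gave 0.46 in place of -0.38. In every other alternative run, 0 members passed 1.5-fold and no member moved by more than its scanner error. Some of these runs could not show otherwise. The filters on dim probes leave the value of the brightest probe as it is, and a 2-fold mark cannot raise a count of 0. Centring on the median or on detected probes shifts all genes alike, by -0.05 and -0.06, less than the scanner error. Counts over all genes were 622 higher and 625 lower, or 275 and 433 with normexp, 210 and 304 with the stricter filter, and 3032 and 2642 with no filter, which moved the median of all genes to -0.15. With no filter 8 of the 10 members also lay above the median of all genes, while their own median stayed at -0.06. With normexp 5 of the 10 did, and their median was 0.03 beside 0.05 for all genes. Of the 1247 genes apart in the main values 49.9% were higher, a share that was 39.8% with centring on the median.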
